A study of Mus musculus with 9 samples.

Results

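The small proline-rich proteins, encoded by the *Sprr* genes, were examined in bulk RNA-Seq libraries of mouse skin after deletion of *Supt6*, the gene of the transcription elongation factor SPT6. The members were the 10 genes *Sprr1a*, *Sprr1b*, *Sprr2a1*, *Sprr2b*, *Sprr2d*, *Sprr2e*, *Sprr2h*, *Sprr2k*, *Sprr3* and *Sprr4*, taken by name from a count table of 17943 genes, and all 10 were found there. Another 4 genes of the family, *Sprr2a2*, *Sprr2a3*, *Sprr2f* and *Sprr2i*, were also in the table and are described beside the members. The libraries came from 4 *Supt6*-KO mice and 5 control mice, harvested on day 10. Both groups carried *Supt6* fl/fl, with exons 12 to 19 floxed. The *Supt6*-KO mice also carried K14-CreERT and had received tamoxifen at 50 mg/kg once a day for 5 days, whereas the controls had no Cre and had received corn oil. Effects of Cre, of tamoxifen and of the deletion therefore cannot be told apart. The K14 promoter drives Cre in basal keratinocytes and their progeny, while the RNA came from whole skin with all its cell types. The sample labels call the controls wild type, the tissue ear skin and the treatment a knockdown. The study itself describes dorsal skin, lesional in the *Supt6*-KO mice and from a matched site in the controls. Tamoxifen was given in the first telogen, the first resting phase of the hair cycle, and the age in days or weeks was not found in the sources used here.

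Small proline-rich proteins are building blocks of the cornified envelope, the protein shell that replaces the plasma membrane of a keratinocyte as it becomes a cell of the stratum corneum. Transglutaminases cross-link them to loricrin, involucrin and other envelope proteins, and the proline-rich repeats act as bridges between these partners. The genes lie side by side in the epidermal differentiation complex, a cluster that also holds the late cornified envelope genes and the S100 genes. Family members are induced in stressed, wounded and inflamed epidermis, and SPRR3 is best known from the lining of the mouth and oesophagus.

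The 14 *Sprr* genes of the table lie on chromosome 3 between 92215835 and 92500493 (GRCm38, mm10). The promoters of 6 members are shown so that *Sprr2d*, *Sprr2h* and *Sprr2k*, which were 69% to 81.9% identical to each other in the 250 bases upstream of the start, can be set beside *Sprr1a*, *Sprr1b* and *Sprr3*, which were 47.7% to 56.1% identical to these 3. The sequences are from RefSeq (GRCm38.p6), read 5′ to 3′ on the strand of the gene, and they begin 200 bases upstream of the start of the RefSeq transcript. Capitals mark TGANTCA, the core of the AP-1 motif, ATTTGCAT, the octamer motif of POU factors, and TATAAA, the TATA box. The first 3 sequences belong to *Sprr2* genes on the forward strand, *Sprr2d* (chr3:92338940-92339139), *Sprr2h* (chr3:92385485-92385684) and *Sprr2k* (chr3:92432382-92432581).
Sprr2d: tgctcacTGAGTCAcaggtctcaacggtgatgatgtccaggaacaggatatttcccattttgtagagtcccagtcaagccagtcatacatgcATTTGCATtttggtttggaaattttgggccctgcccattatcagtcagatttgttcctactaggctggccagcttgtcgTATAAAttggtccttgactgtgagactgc
Sprr2h: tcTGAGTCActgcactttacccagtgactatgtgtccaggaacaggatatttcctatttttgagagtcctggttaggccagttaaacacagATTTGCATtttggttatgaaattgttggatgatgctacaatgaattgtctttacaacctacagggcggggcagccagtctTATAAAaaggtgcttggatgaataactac
Sprr2k: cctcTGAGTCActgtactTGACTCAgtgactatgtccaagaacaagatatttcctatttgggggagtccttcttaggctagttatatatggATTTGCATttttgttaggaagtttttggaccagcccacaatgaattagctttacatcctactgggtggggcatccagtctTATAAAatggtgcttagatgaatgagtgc

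The other 3 sequences belong to genes on the reverse strand, *Sprr1b* (chr3:92438790-92438979), *Sprr1a* (chr3:92485896-92486081) and *Sprr3* (chr3:92458721-92458920). The sequences of *Sprr1b* and *Sprr1a* stop 11 and 15 bases before the RefSeq start used here, where a GENCODE exon begins. The RefSeq gene of *Sprr1b* reaches to 92438817, however. The end of its printed sequence, with TATAAA, thus lies within that gene and not upstream of it.
Sprr1b: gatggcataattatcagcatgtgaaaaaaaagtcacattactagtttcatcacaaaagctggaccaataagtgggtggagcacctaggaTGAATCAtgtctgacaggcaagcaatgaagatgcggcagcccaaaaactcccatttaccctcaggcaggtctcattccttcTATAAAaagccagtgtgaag
Sprr1a: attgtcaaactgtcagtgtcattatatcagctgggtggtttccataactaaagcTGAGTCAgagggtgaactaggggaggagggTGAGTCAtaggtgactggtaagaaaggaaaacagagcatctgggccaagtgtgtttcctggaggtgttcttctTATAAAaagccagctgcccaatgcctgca
Sprr3: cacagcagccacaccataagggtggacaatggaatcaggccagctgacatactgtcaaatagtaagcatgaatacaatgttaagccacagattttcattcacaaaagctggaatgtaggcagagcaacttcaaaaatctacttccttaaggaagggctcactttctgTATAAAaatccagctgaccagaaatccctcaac

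Motifs were searched on both strands in windows from 250 bases upstream to 50 bases downstream of each start, and all 10 members had such a window. TGANTCA was found in 7 of the 10 members, in *Sprr1a*, *Sprr1b* and 5 *Sprr2* genes, against 7.81% of 32851 windows of the same length across the genome. ATTTGCAT was found in 5 members, all of them *Sprr2* genes, against 1.74% of windows, and TATAAA in 8 members against 13.6%. In *Sprr2b*, *Sprr2d*, *Sprr2e*, *Sprr2h* and *Sprr2k* the octamer began 108 or 109 bases and the TATA box 29 bases upstream of the start. *Sprr2k* had TGANTCA at 2 positions, 196 and 182 bases upstream, and *Sprr1a* at 146 and 116 bases upstream. AGGAA, the core of the ETS motif, was found in 10 of 10 members, and in 66.7% of all windows. The κB consensus was found in 0 of the 10 members, against 8.46% of windows, which says only that those letters are not in these windows. A match is a description of the sequence and not a binding site.

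The 250 bases upstream of *Sprr2d* and *Sprr2e* were 90.3% identical over 248 aligned bases, and those of *Sprr2h* and *Sprr2k* were 81.9% identical over 248. Identity between *Sprr1b* and *Sprr2d* was 56.1%. The windows of *Sprr2a1* and *Sprr2a2* were identical in all bases. *Sprr2a1* was 50.8% to 60.5% identical to the other 5 *Sprr2* members, a range that includes its identity to *Sprr1b* (59.8%) and *Sprr3* (59%). A run of 18 bases that begins 80 bases upstream of the *Sprr2b* start was found downstream of the *Sprr2a1* start, at base 6, so these windows are not comparable base by base.

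The identity reaches into the transcripts, and this bears on the counts. In the GENCODE model of *Sprr2a1*, which has 3003 bases, 92.5% of all stretches of 100 bases, the length of a read, also occur in another *Sprr* transcript, chiefly that of *Sprr2a2*. The rows of *Sprr2a1* and *Sprr2a2* held the same estimated counts in 9 of 9 mice, so the reads of this pair had been divided evenly and neither row is an independent measurement. *Sprr2a1* below stands for the pair. In *Sprr2b* 0.438% and in *Sprr2e* 1.09% of such stretches were shared, and in the other 7 members the share was 0. The estimated counts of *Sprr2d* were nonetheless not whole in 4 mice, by small fractions, so a few of its reads had also been divided.

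The libraries held 29627341 to 30491197 counts in the controls and 30597189 to 30967107 in the *Supt6*-KO mice. *Supt6* was lower in the *Supt6*-KO mice, at 25.7 ± 3.31 CPM (SD, n = 4) against 76.5 ± 17.2 CPM (SD, n = 5), with no overlap between the groups. CPM here are counts scaled to library size with TMM factors. KO mouse 4 stood apart from the other 3 *Supt6*-KO mice before any *Sprr* gene was considered. Its 6 suprabasal keratinocyte markers summed to 28641 CPM, against 70373, 79968 and 76786 CPM in KO mice 1 to 3 and 19563 to 21838 CPM in the controls. Its 6 basal keratinocyte markers summed to 13866 CPM, against 8058, 5411 and 6519 CPM in the other *Supt6*-KO mice and 9523 to 10554 CPM in the controls. *Supt6* itself was at 28.4 CPM in KO mouse 4, within the range of the other 3. The changes of the called members are therefore given with and without this mouse.

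Of the 10 members, 9 were higher in *Supt6*-KO skin and 1, *Sprr4*, was not called. A gene was called when the quasi-likelihood test of edgeR gave a p under 0.05, adjusted by Benjamini-Hochberg across 16426 genes, and the change was at least 2-fold. All 10 members passed the filter on low counts, and 20.9% of all genes tested were called higher and 24.9% lower. The median log2 fold change was 7.27 over the 10 members and -0.07 over all genes tested. In the same 9 members every *Supt6*-KO mouse was above every control in TMM-scaled CPM, a pattern that 28.9% of all genes tested had, while 31.8% were apart in the other direction. The 4 other *Sprr* genes were also called higher, *Sprr2a2* with the values of *Sprr2a1*. In bulk skin, more cells of a type and more RNA per cell cannot be told apart. Without KO mouse 4 the same 9 members were called and the median was 6.84.

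**Figure D1:**
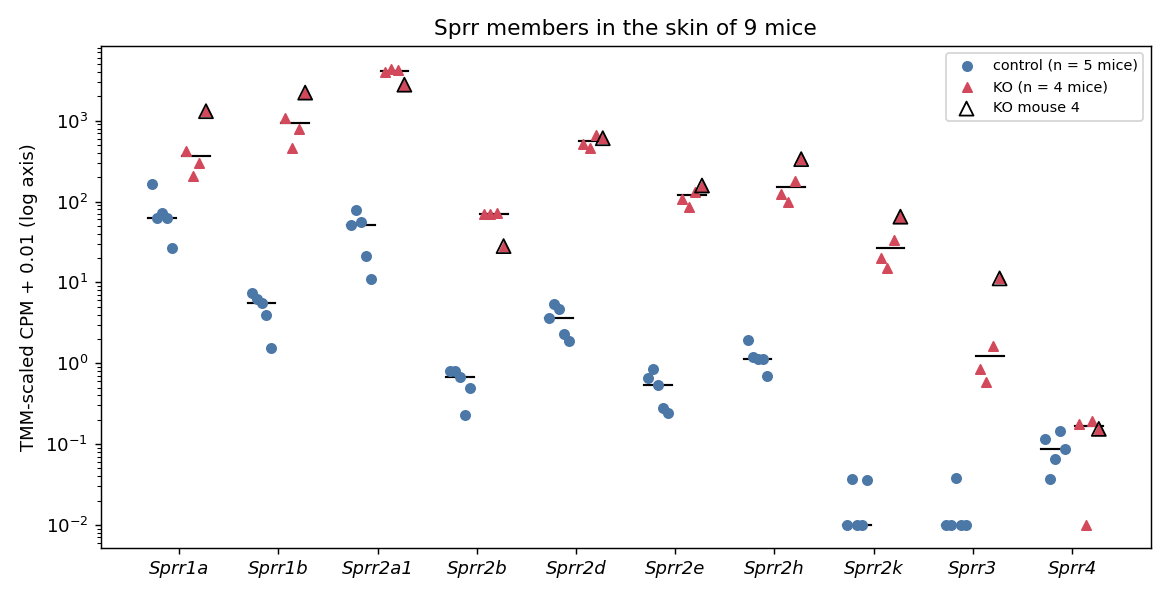
Each point is the level of a member in 1 mouse, as TMM-scaled CPM plus 0.01 on a log axis, with 5 control mice as circles, 4 *Supt6*-KO mice as triangles, KO mouse 4 outlined and a bar at each group's median. On this scale the groups are apart for every member but *Sprr4*, and KO mouse 4 is above the other *Supt6*-KO mice for *Sprr1a* and *Sprr3* and below them for *Sprr2a1* and *Sprr2b*.

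The *SPRR1* type was represented by *Sprr1a* and *Sprr1b*, which both encode envelope bridges and lie in the same cluster. *Sprr1a* was at 163, 61.8, 72.7, 62.4 and 26.9 CPM in controls 1 to 5 and at 427, 208, 302 and 1313 CPM in KO mice 1 to 4. On this TMM-scaled CPM scale all 4 *Supt6*-KO mice lay above all 5 controls, KO mouse 2 only narrowly above control 1, and KO mouse 4 was far above the rest. The separation rested on that scaling, since as a share of its library *Sprr1a* was lower in KO mouse 2 (0.014%) than in control 1 (0.0203%). In TPM, KO mice 1 to 3 (528, 199 and 299 TPM) lay below control 1 (561 TPM). The log2 fold change of *Sprr1a* was 2.86 (SE 0.59, adjusted p = 0.00102, edgeR), with means of 77.4 ± 51 CPM in the controls (SD, n = 5) and 563 ± 508 CPM in *Supt6*-KO skin (SD, n = 4). Without KO mouse 4 it was 2.01 (SE 0.44, adjusted p = 0.00161, edgeR), the smallest change among the 9 called members.

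*Sprr1b* was at 7.35, 6.21, 5.51, 3.92 and 1.55 CPM in controls 1 to 5 and at 1075, 456, 784 and 2229 CPM in KO mice 1 to 4. Even the lowest *Supt6*-KO mouse was far above the highest control. The log2 fold change of *Sprr1b* was 7.85 (SE 0.59, adjusted p = 1.08e-06, edgeR) and 7.29 (SE 0.45) without KO mouse 4. Per transcript length, *Sprr1a* was above *Sprr1b* in all 5 controls, at 561 against 23.8 TPM in control 1, and below it in all 4 *Supt6*-KO mice, at 528 against 1247 TPM in KO mouse 1.

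The 6 *Sprr2* members, short envelope proteins of closely similar sequence, were all called higher, with log2 fold changes from 6.47 in *Sprr2a1* to 7.90 in *Sprr2e* among the 5 that had more than 3 control counts in all. *Sprr2a1*, which stands for the pair with *Sprr2a2*, was at 50.8, 77.9, 56.6, 20.9 and 11.1 CPM in controls 1 to 5 and at 3974, 4400.5, 4212 and 2794 CPM in KO mice 1 to 4. In TMM-scaled CPM, KO mice 1 to 3 were close together and KO mouse 4 was the lowest, still far above every control. Its place depended on the scale, since in TPM KO mouse 4 (688) lay above KO mice 2 and 3 (597 and 593). The log2 fold change was 6.47 (SE 0.55, adjusted p = 2.12e-06, edgeR), and 6.60 without KO mouse 4. When the 10 *Sprr2* rows of the table were summed before the fit, so that a read divided between copies counted once, the log2 fold change of the sum was 6.53 (adjusted p = 1.69e-06, edgeR).

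*Sprr2d* was at 3.64, 5.42, 4.71, 2.3 and 1.88 CPM in controls 1 to 5 and at 517, 456, 661 and 608 CPM in KO mice 1 to 4. In TMM-scaled CPM it varied least of the members among the *Supt6*-KO mice, with a coefficient of variation of 16.4%, close to the 18.8% of *Sprr2a1*. This order held on that scale only, since in TPM *Sprr2d* ranged from 573 to 1389 and *Sprr2a1* from 593 to 696. The log2 fold change of *Sprr2d* was 7.29 (SE 0.34, adjusted p = 8.18e-08, edgeR), and 7.25 without KO mouse 4. *Sprr2e*, whose promoter is the nearest to that of *Sprr2d*, was at 0.642, 0.849, 0.526, 0.270 and 0.229 CPM in controls 1 to 5 and at 107, 84.7, 132 and 158 CPM in KO mice 1 to 4, with no overlap. Its log2 fold change was 7.90 (SE 0.35, adjusted p = 5.85e-08, edgeR), and 7.74 without KO mouse 4.

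*Sprr2h* averaged 1.21 ± 0.448 CPM in the controls (SD, n = 5) and 184 ± 106 CPM in *Supt6*-KO skin (SD, n = 4), and its log2 fold change was 7.25 (SE 0.43, adjusted p = 2.72e-07, edgeR), and 6.79 without KO mouse 4. Its 4 *Supt6*-KO mice stood at 124, 97.9, 181 and 335 CPM, with KO mouse 4 the highest, and the controls did not exceed 1.93 CPM. *Sprr2b* averaged 0.592 ± 0.247 CPM in the controls (SD, n = 5) and 60.2 ± 21.5 CPM in *Supt6*-KO skin (SD, n = 4), and its log2 fold change was 6.66 (SE 0.39, adjusted p = 2.34e-07, edgeR), and 6.89 without KO mouse 4. The *Supt6*-KO mice stood at 71.0, 69.9, 71.9 and 28.1 CPM for *Sprr2b*, so that KO mice 1 to 3 were almost equal and KO mouse 4 was the lowest.

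*Sprr2k* was nearly silent in the controls. Its estimated counts were 0, 1, 0, 0 and 1 in controls 1 to 5 and 478, 311, 723 and 1809 in KO mice 1 to 4. Scaled to library size with TMM factors, the ratio of the groups was 3274, with a 95% exact counting interval from 906 to 27048 that covers counting error only. The interval is wide because it rests on 2 control counts, and without KO mouse 4 the ratio was 2113 (584 to 17467). *Sprr2k* was called higher with an adjusted p of 3.24e-07 (edgeR).

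*Sprr3* was the least abundant of the called members. It had 0, 0, 1, 0 and 0 counts in controls 1 to 5 and 20, 12, 35 and 311 counts in KO mice 1 to 4, and KO mouse 4 held most of the *Supt6*-KO counts. The ratio, scaled in the same way, was 745 (95% exact counting interval 133 to 29517, adjusted p = 0.000105, edgeR). Without KO mouse 4 it was 187 (32.5 to 7507, adjusted p = 6.82e-06, edgeR). The 6 marker genes of the mouth and oesophagus lining, where SPRR3 is abundant, summed to 116 to 193 CPM in the controls and 96.2 to 132 CPM in the *Supt6*-KO mice, most of it *Tgm3*, which skin also expresses. Among the other markers of that list, whose specificity to the lining was not tested, *Krt4* was at 0.616 ± 0.304 CPM (SD, n = 5) and 0.921 ± 0.652 CPM (SD, n = 4) and was not called. *Krt13* was at 1.75 ± 0.347 CPM (SD, n = 5) and 3.55 ± 1.86 CPM (SD, n = 4) and was called higher, near the 2-fold limit, a call lost with library totals, upper-quartile factors, a filter of 10 counts in every mouse or a replicate block and when any of 4 mice was left out (controls 2 and 3, KO mice 2 and 3). *Krt76* was at 0 in all 5 controls and averaged 0.286 ± 0.276 CPM in the *Supt6*-KO mice (SD, n = 4), and was called higher (adjusted p = 0.00301, edgeR). *Krt36* was called lower at 0.774 ± 0.926 CPM (SD, n = 5) and 0.0847 ± 0.113 CPM (SD, n = 4), with overlap, and lost its call with DESeq2 and without any of 5 mice (controls 1 and 3, KO mice 1 to 3). *Crnn* was not called (adjusted p = 0.565, edgeR). Thus 2 of the 6 markers were called higher and 1 lower, and with library totals 1 higher and 2 lower. These counts are near the 20.9% and 24.9% of all genes tested, so nothing is read from them.

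*Sprr4* was at the limit of detection in both groups. It had 4, 1, 2, 5 and 3 counts in controls 1 to 5 and 4, 0, 4 and 4 counts in KO mice 1 to 4, so the groups overlapped. Its log2 fold change was 0.62 (SE 0.67, adjusted p = 0.419, edgeR), and -0.04 when libraries were scaled to their totals, so no direction can be given. These values rest on 15 control and 12 *Supt6*-KO counts in all, and the size of change that such counts could show was not tested.

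Of the 4 *Sprr* genes beside the members, *Sprr2f* had a log2 fold change of 7.75 (SE 0.45, adjusted p = 2.34e-07, edgeR) and *Sprr2i* of 6.55 (SE 0.34, adjusted p = 1.33e-07, edgeR). *Sprr2a3*, which shares part of its sequence with *Sprr2a1*, averaged 5.83 ± 3.31 CPM in the controls (SD, n = 5) and 415 ± 22.6 CPM in *Supt6*-KO skin (SD, n = 4). Its *Supt6*-KO mice lay between 391 and 443 CPM, a coefficient of variation of 5.44%, below that of every member. The 10 members together made up 0.00564% to 0.0284% of all counts in the controls and 0.390% to 0.686% in the *Supt6*-KO mice. With the other 4 genes the share in the *Supt6*-KO mice was 0.721% to 0.992%.

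Levels of different members were compared per transcript length, as TPM. Among the controls *Sprr1a* was the most abundant, with a median of 221 TPM and a range of 108 to 561 TPM. The next were *Sprr2a1* with a median of 25 TPM, *Sprr2d* with 16.4 TPM and *Sprr1b* with 15.8 TPM, whose ranges overlapped, followed by *Sprr2h*, *Sprr2b* and *Sprr2e* at 3.82, 2.52 and 2.31 TPM, which overlapped as well. In the *Supt6*-KO mice *Sprr1b* (median 989 TPM, range 409 to 3632) and *Sprr2d* (median 852 TPM, range 573 to 1389) had the highest medians, ahead of *Sprr2a1* (median 642 TPM, range 593 to 696) and *Sprr1a* (median 414 TPM, range 199 to 2281). The ranges of these 4 overlapped. Within a mouse *Sprr1b* was above *Sprr1a* in 4 of 4 *Supt6*-KO mice and above *Sprr2d* in 2 of 4. Without KO mouse 4 the medians were 730.2 TPM for *Sprr1b*, 840.1 TPM for *Sprr2d*, 597 TPM for *Sprr2a1* and 299 TPM for *Sprr1a*, so that *Sprr2d* came before *Sprr1b*. *Sprr2e* at a median of 192 TPM, *Sprr2h* at 182 TPM, *Sprr2b* at 86.3 TPM, *Sprr2k* at 43.0 TPM and *Sprr3* at 0.794 TPM followed. TPM of *Sprr4* rest on 0 to 5 counts and a model of 231 bases and were left out. The *Sprr2a1* row holds only its even share of the reads of the pair with *Sprr2a2*, so its place in this order is that of a single row. Summed over both rows, the pair had a median of 50 TPM (range 13 to 66.8) in the controls and of 1285 TPM (range 1186 to 1392) in the *Supt6*-KO mice, above the median of *Sprr1b*. The TPM of *Sprr2a1* depend on the length its transcript was given, since 113 counts made 1 TPM in KO mouse 4, against 12.2 counts for *Sprr2d*.

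The make-up of the family per length differed between the groups. *Sprr1a* made up 69.1% to 87.6% of the summed TPM of the 9 members other than *Sprr4* in the controls and 9.46% to 24.6% in the *Supt6*-KO mice. The share of *Sprr1b* went from between 3.72% and 6.53% to between 19.4% and 39.2%, and that of *Sprr2d* from between 2.56% and 7.92% to between 15.0% and 28.6%. Shares of *Sprr2e*, *Sprr2h* and *Sprr2k* were also higher in every *Supt6*-KO mouse than in every control. The shares of *Sprr2a1*, *Sprr2b* and *Sprr3* overlapped between the groups. In KO mice 1 to 3 alone *Sprr1a* made up 9.46% to 13.8%, *Sprr2a1* 18.2% to 28.4% and *Sprr2b* 2.87% to 3.97%, all apart from the controls. With both rows of the pair in the sum, *Sprr1a* made up 61.4% to 84.4% in the controls and 7.37% to 22.9% in the *Supt6*-KO mice, and the pair 7.52% to 22.3% and 13.8% to 44.2%. These shares add to 100%, so a rise of some lowers the others, and they need no scaling between mice.

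**Figure D2:**
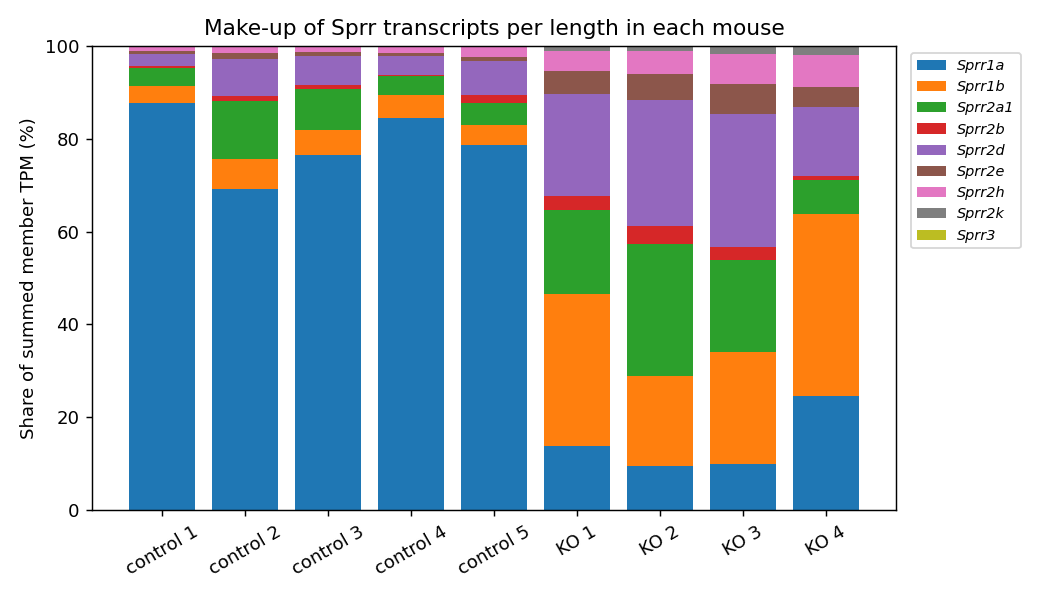
Stacked bars give the share of each of 9 members in their summed TPM, in percent, for the 5 control and 4 *Supt6*-KO mice, with *Sprr2a1* as a single row, without *Sprr2a2*. *Sprr1a* fills at least 69.1% of every control bar and at most 24.6% of every *Supt6*-KO bar, where *Sprr1b* and *Sprr2d* take up most of the rest together with *Sprr2a1*.

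Members differed in how they varied among the *Supt6*-KO mice. In TMM-scaled CPM, KO mouse 4 was the highest for 6 of the 9 called members. These were *Sprr1a*, *Sprr1b*, *Sprr2e*, *Sprr2h*, *Sprr2k* and *Sprr3*, while it was the lowest for *Sprr2a1* and *Sprr2b*. Relative to the median CPM of KO mice 1 to 3, its level was 13.4 times for *Sprr3*, 4.35 times for *Sprr1a*, 3.25 times for *Sprr2k*, 2.84 times for *Sprr1b* and 2.71 times for *Sprr2h*. It was 1.47 times for *Sprr2e* and 1.18 times for *Sprr2d*, but 0.663 times for *Sprr2a1* and 0.395 times for *Sprr2b*. The place of *Sprr2a1* depended on the scale. In TPM, KO mouse 4 (688) lay above KO mice 2 and 3 (597 and 593) and below KO mouse 1 (696). Per 1000 counts of *Krt1* and *Krt10* it was the highest, at 186, and per 1000 of *Krt5* and *Krt14* the lowest, at 210.3. For *Sprr2d*, KO mouse 4 was the highest in TPM, at 1389. In CPM, KO mouse 2 was the lowest for the 7 other called members. Among the controls, control 5 was the lowest for 6 of the 9. The fibroblast markers summed to 10542 CPM in control 5, against 2928 to 5949 CPM in the other controls, and the part of this difference in its low *Sprr* levels was not tested.

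**Figure D3:**
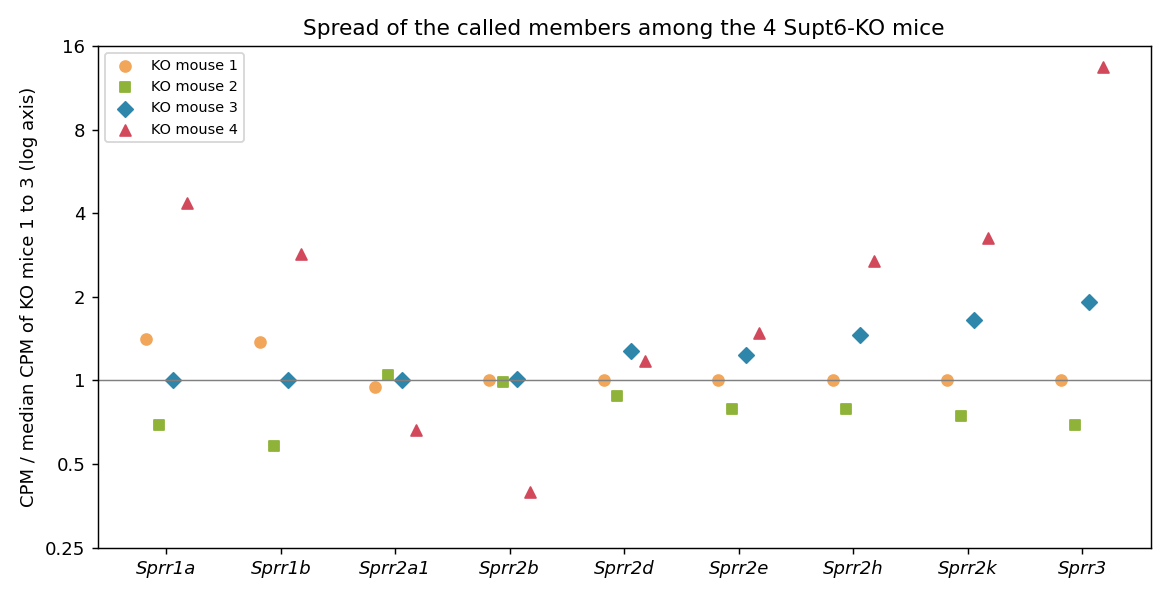
For each called member, the CPM of the 4 *Supt6*-KO mice are divided by the median CPM of KO mice 1 to 3 and shown on a log axis, with 1 marked by a line. KO mouse 4 lies at 13.4 for *Sprr3* and 4.35 for *Sprr1a* but at 0.395 for *Sprr2b*, while KO mice 1 to 3 stay close to each other for *Sprr2a1* and *Sprr2b*.

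The *Sprr* counts were also set against keratin counts of the same library, a ratio that needs no scaling between mice. Per 1000 counts of *Krt5*, *Krt14*, *Krt1* and *Krt10* together, the keratins of basal and suprabasal epidermis, the 10 members had 9.87, 6.67, 6.34, 3.70 and 1.90 counts in controls 1 to 5. In KO mice 1 to 4 they had 158, 166, 180.5 and 266 counts. The groups did not overlap, and the means of 5.70 ± 3.05 (SD, n = 5) and 193 ± 49.8 (SD, n = 4) differed 33.8-fold. Against *Krt5* and *Krt14* alone the means differed 55.7-fold, and against *Krt1* and *Krt10* alone 31.7-fold, again without overlap. *Sprr1a* was the exception among the called members against all 4 keratins: it had 1.19 to 7.05 counts per 1000 keratin counts in the controls and 5.96 to 46.4 in the *Supt6*-KO mice, which overlapped. It overlapped against *Krt1* and *Krt10* too, but not against *Krt5* and *Krt14*, where no control exceeded 21.2 and no *Supt6*-KO mouse was below 42.8. With *Sprr2a1* left out, the mean of the other 9 members was 81.8 ± 58.2 (SD, n = 4) in the *Supt6*-KO mice, 21.5-fold above the controls. Without KO mouse 4 as well it was 53.1 ± 11.7 (SD, n = 3), or 14-fold, and that of all 10 members was 168 ± 11.4 (SD, n = 3), or 29.5-fold, both without overlap.

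**Figure D4:**
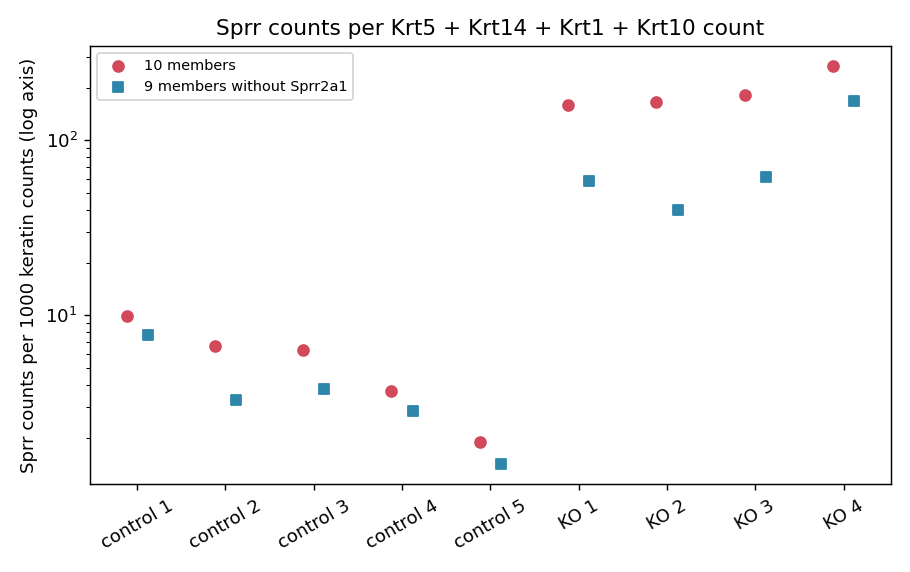
Points give, for each of the 9 mice, the *Sprr* counts per 1000 counts of *Krt5*, *Krt14*, *Krt1* and *Krt10* on a log axis, for the 10 members and for the 9 without *Sprr2a1*. All 4 *Supt6*-KO mice lie at 158 or above for the 10 members, and no control exceeds 9.87.

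Other markers moved in the same libraries, where 20.9% of all genes tested were called higher and 24.9% lower. Of the 6 basal keratinocyte markers 0 were called higher and 3 lower (*Col17a1*, *Trp63* and *Itgb4*), with *Krt14* the most abundant in the *Supt6*-KO mice at 5355 ± 2915 CPM (SD, n = 4). Of the 6 suprabasal markers 4 were called higher (*Krt1*, *Calm4*, *Krtdap* and *Dsc1*), and their most abundant control gene, *Krt10*, had a log2 fold change of 0.19 (SE 0.28, adjusted p = 0.555, edgeR). Of the 6 neutrophil markers 5 were called higher, led by *S100a9* at 12.3 ± 7.08 CPM (SD, n = 5) and 2715 ± 895 CPM (SD, n = 4). *Cxcr2*, a chemokine receptor gene, lost its call with library totals (log2 fold change 0.46, leaving 4 higher), with a replicate block (0.95), without control 5 (0.98) and without KO mouse 1 (0.92). Keratinocytes of inflamed skin also express *S100a8* and *S100a9*. *Ly6g*, a surface marker of mouse neutrophils, had 1 count in all in the controls and 4, 0, 15 and 1 counts in KO mice 1 to 4, so its groups overlapped, and without KO mouse 3 it did not pass the filter on low counts. *Mpo*, a granule enzyme gene, fell, from 66 counts over the controls to 1 over the *Supt6*-KO mice. The summed neutrophil markers were at 4560, 5157, 6395 and 2512 CPM in KO mice 1 to 4 and at 13.9 to 42.7 CPM in the controls, most of it *S100a8* and *S100a9*, which in KO mouse 4 were at 931 and 1561 CPM. *Csf3r*, the receptor gene of a neutrophil growth factor, was at 9.74 CPM in KO mouse 4 and at 8.47 ± 2.99 CPM in its group (SD, n = 4), against 0.496 ± 0.144 CPM in the controls (SD, n = 5). All 6 hair follicle markers, 5 of 6 skeletal muscle markers, 5 of 6 adipocyte markers and 2 of 6 fibroblast markers were called lower. The fibroblast count is near the share over all genes. *Krt71* (hair follicle), *Acta1* (muscle), *Fabp4* (adipocytes) and *Col3a1* (fibroblasts) were the most abundant genes of these lists, and the last 2 were not called. With library totals 5 of 6 basal, 5 of 6 fibroblast and 6 of 6 muscle markers were called lower. That scaling called 6802 of all 16426 genes lower. The part of these differences in the *Sprr* values was not tested.

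The rest of the cluster and the partners of the *Sprr* proteins were examined in lists. Of all genes tested 20.9% were called higher and 24.9% lower. Of 51 other genes of the epidermal differentiation complex, from 90511034 to 93564645 on chromosome 3, 33 were called higher and 2, *Lor* and *S100a3*, lower, with a median log2 fold change of 1.70. Scaling to library totals gave 24 higher and 7 lower, and over all 16426 genes 1470 higher and 6802 lower. The late cornified envelope genes, whose products are laid down late in cornification, were called higher in 19 of 21 cases, at a median log2 fold change of 2.22. Library totals gave 13 higher and 1 lower, *Lce1m* at -1.40, and a replicate block gave 16 higher and 0 lower. In this list *Lce1a1*, *Lce1a2*, *Lce1d* and *Lce1b* had log2 fold changes of 1.70, 1.63, 1.90 and 1.68, though with library totals only *Lce1d* of these 4 was still called. With TMM factors *Lce1m* (log2 fold change -0.63, adjusted p = 0.31, edgeR) and *Lce1l* (0.35, adjusted p = 0.547) were not called. Named after their values were seen, the 6 *Lce3* genes, which skin makes after injury, had log2 fold changes from 6.28 in *Lce3c* to 8.80 in *Lce3a*. KO mouse 4 was the lowest of its group for 21 of the 21 genes, for *Lce1a1* at 155 CPM against a control mean of 242 ± 32.9 CPM (SD, n = 5). In 8 of the 21 genes every *Supt6*-KO mouse was above every control. Of all genes tested 28.9% had that pattern, so nothing is read from this count.

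Of 23 envelope partners tested 9 were called higher and 3 lower, against 20.9% and 24.9% of all genes tested. The median log2 fold change of the partners was 0.61. Library totals gave 8 higher and 6 lower, at a median of -0.12, and leaving out control 2 gave 5 lower. *Krt1*, a suprabasal keratin, rose by 3.65 (SE 0.24, adjusted p = 5.28e-07, edgeR) on the log2 scale and *Krtdap*, a keratinocyte differentiation gene, by 1.82 (SE 0.27). *Krt2*, a keratin of the uppermost living layers, fell by 6.35 on the log2 scale (SE 0.8, adjusted p = 2.97e-05, edgeR). *Lor*, the gene of loricrin, the main *Sprr* partner, had a log2 fold change of -1.23 (SE 0.35), and -0.95 without KO mouse 4, no longer called. *Evpl*, encoding envoplakin, was the third called lower, at -1.74 (SE 0.18). The others called higher, named after their values were seen, were *Rptn* (9.41), *Csta1* (2.8), *Crct1* (2.77), *Cnfn* (2.14), *Ivl* (1.99), *Calml3* (1.88) and *Hrnr* (1.48). *Ivl* is the gene of involucrin. *Hrnr* had overlapping groups and lost its call with library totals. *Dmkn*, at 0.61 (adjusted p = 0.0236, edgeR), changed by less than 2-fold.

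Of 9 genes of the transglutaminase family tested, 1 was called higher and 3 lower, which is near the shares over all genes. The family includes the enzymes that join these proteins, but not all 9 genes act in the envelope. The median log2 fold change of the 9 was -0.61. With library totals 0 were called higher and 5 lower. *Tgm1*, the main enzyme of the envelope, had a log2 fold change of 0.65 (SE 0.12, adjusted p = 0.000605, edgeR), under 2-fold, and *Tgm3* of -0.61 (SE 0.17). *Tgm5* was called higher at 1.41 (SE 0.15), though not with library totals, where it was at 0.71. *Tgm2* was called lower at -2.47 (SE 0.19), and *F13a1* had 0.21 (adjusted p = 0.477, edgeR). *Tgm6* was also called lower, at -3.46, though its groups overlapped, with 1 to 344 counts in the controls and 1 to 12 in the *Supt6*-KO mice. *Tgm7* was the third called lower, with 49 to 95 counts in each control and 1 count in all in the *Supt6*-KO mice, in KO mouse 4.

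Of 29 transcription factors reported to act on *Sprr* genes, 3 were called higher and 7 lower, at a median log2 fold change of -0.54, whereas library totals gave 1 higher and 20 lower. The share called lower was near the 24.9% of all genes tested, and library totals called 6802 of the 16426 genes lower, so nothing is read from these counts. The 5 most abundant were *Klf4* (-0.54, SE 0.16), *Trp63* (-1.21, SE 0.14), *Cebpa* (-0.49, SE 0.18), *Ets2* (-0.87, SE 0.14) and *Grhl1* (-0.76, SE 0.13), of which *Trp63* passed the 2-fold limit. The 3 called higher, named after their values were seen, were *Elf3*, *Nfe2l2* and *Prdm1*. *Elf3*, an ETS factor of epithelia, rose by 3.79 on the log2 scale (SE 0.49, adjusted p = 3.51e-05, edgeR), from a control mean of 1.09 ± 0.206 CPM (SD, n = 5) to 15.1 ± 14.2 CPM (SD, n = 4), with KO mouse 4 at 36.3 CPM, and by 2.87 without that mouse. *Nfe2l2*, which encodes NRF2, had 1.35 (SE 0.15) and *Prdm1* 1.14 (SE 0.21), and neither was called with library totals. *Prdm1* was also not called without KO mouse 2. The 7 called lower, of which all but *Trp63* were named after their values were seen, were *Fosb* (-3.22), *Cux1* (-2.53), *Pou2f3* (-1.46), *Ets1* (-1.44), *Rela* (-1.36), *Trp63* and *Jund* (-1.05), the last of which lost its call with DESeq2 and without KO mouse 3. *Elf3* was called higher with library totals and with upper-quartile factors as well, while DESeq2 gave it no adjusted p.

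The 4 keratins of wounded and stressed epidermis were called higher. *Krt16* rose by 7.23 (SE 0.65, adjusted p = 2.98e-06, edgeR), *Krt6b* by 8.18 (SE 0.82, adjusted p = 5.74e-06, edgeR) and *Krt6a* by 4.70 (SE 0.67, adjusted p = 7.43e-05, edgeR) on the log2 scale. KO mouse 4 was the highest of its group for all 4, at 7999.8 CPM for *Krt16*, 7578 CPM for *Krt6a* and 6183 CPM for *Krt6b*, against group means of 3607, 2709.9 and 2343 CPM, and without this mouse the log2 fold changes were 6.47, 3.37 and 7.04. *Krt17* (1.04, SE 0.38, adjusted p = 0.0289, edgeR) was at the limit of 2-fold, and its call was lost with library totals, upper-quartile factors, a filter of 10 counts in every mouse and a replicate block, without KO mouse 4 (log2 fold change 0.37) and without any of controls 2 to 5.

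**Figure D5:**
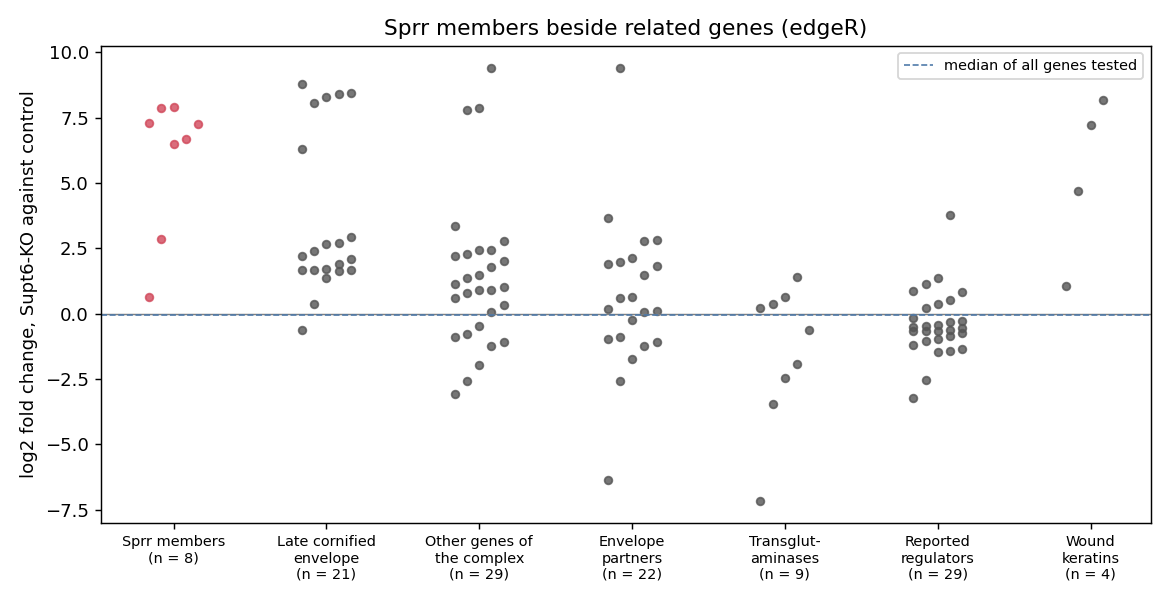
Each point is the log2 fold change of a gene, *Supt6*-KO against control, for 8 *Sprr* members and 6 sets of related genes, with the dashed line at the median of all genes tested. *Sprr2k*, *Sprr3* and genes at 0 in every control are left out, since their fold rests on almost no control counts, and a gene may appear in more than 1 set. All *Sprr* members but *Sprr1a* and *Sprr4* lie above 6, near the 6 *Lce3* genes and *Krt16*.

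Finally, genes were ranked by how closely they followed the mean log2 profile of the members over the 9 mice, among 13881 genes, as a description. The 5 closest, with Pearson's r of 0.997 or 0.998, were *Klk6*, *Suv39h2*, *Tmem50b*, *Zdhhc13* and *Atp6v1b2*, and these values chiefly reflect the difference between the groups. *Klk6*, a secreted protease of the kallikrein family, was at 12.6 CPM in the controls and 659 CPM in the *Supt6*-KO mice. With each group's mean removed the closest were *Tmem50b* (r = 0.976), *Bbs5* (0.972), *Krt16* (0.964), *Mars2* (0.962) and *Eif3l* (0.958). By the same measure *Sprr1b* (0.958), *Sprr2e* (0.937), *Sprr2h* (0.909) and *Sprr1a* (0.895) followed the members' mean within groups, of which they are themselves part. *Sprr2a1* had an r of 0.487 and *Sprr2b* of -0.275. The 9 points share their library scaling, and the values within groups were not recomputed without KO mouse 4.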

How the data were processed

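Estimated counts per gene were deposited by the authors for 9 mice, made from paired reads with Bowtie2 2.3.4.3 and RSEM 1.3.1 on mm10 and not normalized between samples. The annotation release was not given in the sources used here, nor was the strand setting. The authors also deposited TPM for 6 of the samples, and TPM of KO mice 1 to 3 were rebuilt here from their counts and the counts per TPM of KO mouse 4, a step that differed from deposited TPM by a median of 0.29% and at most 2.18% in 132 pairs with known values. Of 17943 gene identifiers 17917 matched a RefSeq gene.

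Groups and replicate numbers came from the sample titles. Replicates are separate mice. Counts were rounded (9% were not whole), genes with fewer than 10 counts over all mice were left out, and edgeR 4.0.16 (R 4.3.3) tested the groups with TMM factors, a quasi-likelihood fit and no covariate, adjusting over 16426 genes. The test was tried on simulated data. Calls needed an adjusted p under 0.05 and a 2-fold change. An SE given with an edgeR fold change was derived here. It is the absolute log2 fold change divided by the square root of the F statistic of the test. A count of 3 was taken as the floor of a library.

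The members and the gene lists were chosen with earlier results of these data known. Named genes were *Supt6*, every *Sprr* gene, the 5 most abundant of each list, cell type markers and the 5 genes nearest to the mean profile of the members. Genes outside this rule were named after their values were seen, mostly to complete a count. Lengths and stretches came from GENCODE M21. Results were recomputed with upper-quartile factors, library totals, DESeq2 1.42.0, a replicate block, other filters, each mouse left out, without the 50 most abundant genes, with summed *Sprr2* rows and other keratin denominators. List counts under these settings, the sum without *Sprr2a1* and the TPM of its pair were added after seeing the data. Tables used Python 3.11.15 and pandas 2.3.3.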

Additional observations from a re-analysis of the deposited data

Results flagged for a closer look

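Of 44 groups of 4 or 5 mice examined, 3 had a mouse far from the others by Dixon's criterion, and 5% of 44 would be about 2.2. The groups share the same mice and are not independent. A group with a single mouse above 0 is flagged whatever that value, so the 2 numbers cannot be compared. For *Sprr2b*, KO mouse 4 was at 28.1 CPM, against a group median of 70.4 CPM. For *Sprr3*, KO mouse 4 was at 11.2 CPM against a group median of 1.22 CPM, and control 3 was at 0.0277 CPM, a single count, against a group median of 0. KO mouse 4 is thus low for *Sprr2b* and high for *Sprr3*.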

How the results depend on the processing

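The 9 called members remained called higher in each fit in which they were tested, 141 values over the alternatives, and *Sprr4* was called in none. Scaling to library totals moved the median change of all genes tested to -0.759 (log2) and the calls to 1470 higher and 6802 lower, and gave *Sprr4* -0.04. Requiring 10 counts in every mouse left *Sprr2b*, *Sprr2e*, *Sprr2k*, *Sprr3* and *Sprr4* untested. With each mouse left out, calls ranged from 3248 to 3476 higher and 3845 to 4204 lower, and the log2 fold change of *Sprr1a* from 2.01 (without KO mouse 4) to 3.33 (without control 1). Per 1000 keratin counts, the family means were 16.5 in the controls and 917 in the *Supt6*-KO mice against *Krt5* and *Krt14*, the *Supt6*-KO mean was 276 against *Krt1* and *Krt10*, and 81.8 with *Sprr2a1* left out. The control counts of *Sprr2k* and *Sprr3* (2 and 1 in all) and the 15 of *Sprr4* limit the precision of their values.

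Same-numbered mice deviated together only weakly (mean r = 0.133, lowest 0.013, over 4 pairs, against -0.028 over the 16 other pairs), so the numbers were not taken as a pairing. With numbers as a replicate block, 3134 genes rose and 3834 fell, and *Sprr1a* had a log2 fold change of 2.34 and *Sprr1b* of 7.39.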
